A study of Mus musculus with 24 samples.

Results

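The 10 genes described here encode the core of the MTOR kinase complexes and their best known effectors: Mtor, Mlst8, Rptor, Akt1s1, Rictor, Mapkap1, Rheb, Eif4ebp1, Eif4ebp2 and Rps6kb1. They were chosen by symbol, for their place in the pathway, out of 55487 genes in the count table, and all 10 were among the 15828 genes that passed the filter on low counts. RNA sequencing of polyadenylated RNA was carried out on mouse embryonic fibroblasts (MEFs) that were wild-type (WT) or lacked both catalytic subunits of AMPK (AMPK KO), each given DMSO as vehicle, MK-8722 (a direct activator of AMPK) or torin1 (an inhibitor of the MTOR kinase). The 6 groups held 4 libraries each, 24 in all. Passages 12 to 15 were used for WT and passages 16 to 19 for AMPK KO, with 1 library of each passage in each group, so passage and genotype cannot be told apart. No second independent line of either genotype is described in the study's methods, and the p-values therefore measure the spread between passages of a line. The labels give neither the dose nor the duration of treatment.

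MTOR is a serine/threonine kinase that works in a pair of complexes. In MTORC1 it is joined by RPTOR, which presents substrates, and AKT1S1 (PRAS40), an inhibitory subunit; in MTORC2 by RICTOR and MAPKAP1 (SIN1); MLST8 sits in both. RHEB, a small GTPase held at the lysosome, switches MTORC1 on, and MTORC1 then phosphorylates the translation repressors EIF4EBP1 and EIF4EBP2 and the ribosomal S6 kinase RPS6KB1. AMPK restrains MTORC1 by phosphorylating RPTOR and the TSC complex, and torin1 blocks the active site of MTOR in both complexes. All of this is regulation of proteins, whereas the values below are levels of RNA.

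Library totals ran from 26900240 to 34192685 estimated counts, and RNA integrity numbers from 9.7 to 10. In TMM-scaled CPM, which are counts relative to library size, the fibroblast genes Vim (1466 in the lowest library) and Col1a1 (319) were abundant throughout, and Pdgfrb had 40.6 to 119 CPM. Col1a2 ran from 10.3 to 3287 CPM, Col3a1 from 4.85 to 183 CPM, and Thy1 did not exceed 2.29 CPM. Of the markers of other cells, Ptprc and Myod1 were at or near 0 and Epcam reached 4.08 CPM. Summed over the 6 fibroblast markers, AMPK KO libraries held 2388 to 3310 CPM and WT libraries 7163 to 11860 CPM. Transcripts of Prkaa1 had 65.6 to 82.5 CPM in AMPK KO and 71.3 to 84.5 CPM in WT, and those of Prkaa2 2.34 to 5.715 and 3.22 to 9.01 CPM. With DMSO both were lower in AMPK KO, by log2 -0.19 ± 0.048 for Prkaa1 (adjusted p = 0.00101, edgeR) and -0.56 ± 0.198 for Prkaa2 (adjusted p = 0.0146, edgeR). Both were present in both genotypes, so their level does not check the genotype labels.

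Promoter sequences were available from RefSeq (GRCm38.p6) for 9 of the 10 genes, as windows of 300 bases that reach from 250 bases before to 50 after a start site. Eif4ebp1 had no entry. The 250 bases upstream of Rictor and Rptor are shown because these subunits distinguish MTORC2 from MTORC1 and their RNA moved in opposite directions under torin1. Those of Mapkap1 are shown because it is the only member with a match to any of the motifs searched. Capitals mark CpG dinucleotides in the Rictor and Rptor sequences and the motif in the Mapkap1 sequence, and all read 5′ to 3′ on the plus strand.
Rictor, chr15:6708131-6708380: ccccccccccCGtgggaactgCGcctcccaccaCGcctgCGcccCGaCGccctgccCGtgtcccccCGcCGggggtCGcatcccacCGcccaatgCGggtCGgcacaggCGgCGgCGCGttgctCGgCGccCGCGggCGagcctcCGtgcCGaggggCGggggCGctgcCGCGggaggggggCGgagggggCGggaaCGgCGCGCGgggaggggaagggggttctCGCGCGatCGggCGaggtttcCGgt
Rptor, chr11:119602655-119602904: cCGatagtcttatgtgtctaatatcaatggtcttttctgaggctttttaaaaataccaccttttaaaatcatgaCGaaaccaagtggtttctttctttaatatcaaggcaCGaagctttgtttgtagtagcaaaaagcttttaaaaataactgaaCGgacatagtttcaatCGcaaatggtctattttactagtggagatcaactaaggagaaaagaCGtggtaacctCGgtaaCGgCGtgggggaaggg
Mapkap1, chr2:34406521-34406770: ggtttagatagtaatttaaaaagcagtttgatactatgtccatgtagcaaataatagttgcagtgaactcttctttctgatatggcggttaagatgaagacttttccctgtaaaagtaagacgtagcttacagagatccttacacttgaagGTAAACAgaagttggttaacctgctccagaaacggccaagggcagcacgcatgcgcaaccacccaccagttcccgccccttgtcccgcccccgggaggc
The Rictor stretch held 81.2% G and C and 40 CpG, the Rptor stretch 37.6% and 9 CpG, against a median of 52.4% and 6 CpG over all 32851 stretches of this length. In G and C content the 2 genes lay on either side of the median, and both had more CpG than the median. Other members that fell under torin1 in WT had 70.0% (Eif4ebp2), 68.0% (Rheb), 52.8% (Rps6kb1) and 46.4% (the Mapkap1 stretch shown). A link between base content and the direction of change was not tested. A set of 3 motifs was searched on both strands, none of which contains another: TGATGNAA (the ATF4 composite element) was present in 3.97% of all windows, TCACGTGA (the CLEAR box of TFEB and TFE3) in 0.974% and GTAAACA (the forkhead motif bound by FOXO factors) in 3.65%. Neither of the first 2 was found in a member's window. GTAAACA was found in 2 windows, both of Mapkap1, which has 2 annotated start sites whose windows overlap and share the same match, beginning 99 bases before the upstream start site.

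Compared per length, in TPM (a length-corrected relative abundance estimated by Salmon), the members differed widely in level. In WT given DMSO, Eif4ebp1 was highest at 391 ± 72.7 TPM (SD, n = 4), followed by Akt1s1 at 127 ± 6.22, Eif4ebp2 at 96.5 ± 4.07 and Rheb at 94.9 ± 10.5. Below them came Mapkap1 (57.4 ± 2.40 TPM), Rps6kb1 (46.9 ± 1.88), Mlst8 (30.3 ± 1.21), Rptor (26.4 ± 2.68) and Mtor (19.0 ± 1.16), and Rictor was lowest at 8.52 ± 0.642. In gene TPM, which sums all transcripts of a gene, the effectors and Rheb thus had more RNA than the kinase itself. The MTORC1 subunit Rptor likewise had more than the MTORC2 subunit Rictor. Neighbours in this order whose libraries overlapped were Eif4ebp2 with Rheb and Mlst8 with Rptor, and all others were separate. In AMPK KO given DMSO the order was alike except that Rheb (101.8 ± 4.30 TPM) stood above Eif4ebp2 (90.4 ± 2.71). Under torin1 Eif4ebp1 stayed first at 173 ± 11.9 TPM in WT and 165 ± 2.28 in AMPK KO, with Akt1s1 next at 137 ± 6.75 and 135 ± 5.99. In WT the kinase then stood above its MTORC1 partner in gene TPM, Mtor at 23.5 ± 1.06 and Rptor at 20.1 ± 2.07, without overlap. By leading coding transcript, Mtor was already above Rptor in WT given DMSO, at 14.1 ± 0.527 against 12.65 ± 0.595 TPM. Under torin1 these were 17.4 ± 0.607 and 11.1 ± 1.13 TPM. In WT given DMSO the coding Rps6kb1 transcript of 5531 bases, at 14.2 ± 0.659 TPM, was level with that of Mtor. The leading coding transcripts of Eif4ebp1 (163 TPM), Eif4ebp2 (66.7) and Rheb (86.25) were above it. The depth behind the gene values was ample: the smallest estimated count of any member in any library was 1093, for Mlst8, and the largest 12016, for Eif4ebp1.

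**Figure D1:**
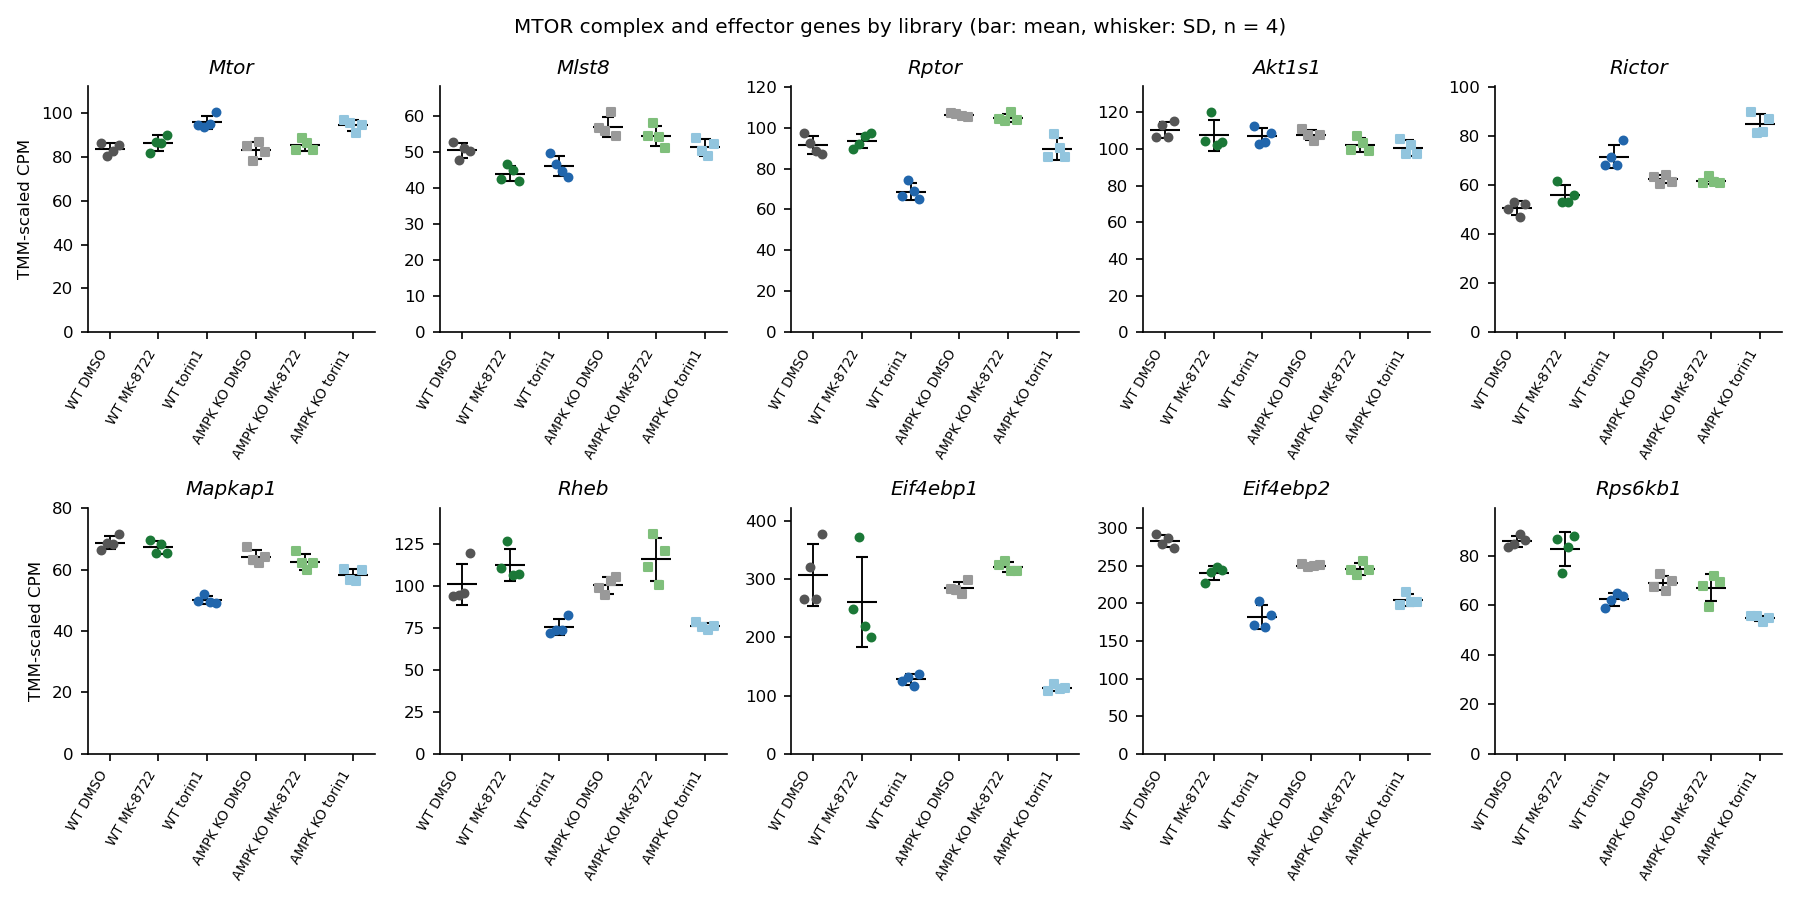
Level of each member in each library, as TMM-scaled CPM on an axis that starts at 0 (points: libraries, circles WT and squares AMPK KO; bar and whisker: mean and SD, n = 4). Rictor was highest in the torin1 groups, while Rptor, Rheb, Eif4ebp1, Eif4ebp2 and Rps6kb1 were lowest there within each genotype.

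The first question was what torin1 did to the RNA of its own target complexes. In WT, torin1 raised Rictor and lowered 6 members: Rptor, Mapkap1, Rheb, Eif4ebp1, Eif4ebp2 and Rps6kb1. A gene was called when the adjusted p of edgeR's quasi-likelihood test was under 0.05 and the fold change at least 1.2. By this rule 7 of the 10 were called, against 47.6% of all genes tested, with a median log2 fold change of -0.42 over the members and 0.036 over all genes. The summed markers of other cells had 1.153 to 2.121 CPM in WT DMSO and 2.05 to 4.32 CPM in WT torin1, and their part in the result was not tested. In bulk RNA, a lower level per cell and a changed mixture of cells cannot be told apart.

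Among the complex subunits, Rictor had 46.8, 50.4, 52.3 and 53.0 CPM in WT given DMSO and 68.2, 68.3, 71.3 and 78.2 CPM under torin1. The groups did not overlap, and the log2 fold change was 0.50 ± 0.052 (SE; adjusted p = 1.59e-08, edgeR), a 1.41-fold rise. Rptor had 87.1, 88.7, 92.7 and 97.5 CPM with DMSO and 65.3, 66.4, 69.0 and 74.4 CPM with torin1. It fell in every passage, by 0.32 to 0.50 on the log2 scale within passages, and the fitted fold was 1.33-fold lower (log2 -0.41 ± 0.046, adjusted p = 3.71e-08, edgeR). Mapkap1, the other subunit particular to MTORC2, went down rather than up: 66.4, 68.5, 68.6 and 71.6 CPM became 49.2, 49.6, 49.7 and 52.1 CPM (log2 -0.46 ± 0.040, adjusted p = 6.78e-10, edgeR). Rictor and Mapkap1, whose proteins share a complex, therefore moved in opposite directions. Mtor itself had 80.6 to 86.5 CPM with DMSO and 93.6 to 100 CPM with torin1, without overlap, but its log2 change of 0.19 ± 0.040 (adjusted p = 0.000165, edgeR) was below the 1.2-fold rule. Mlst8 (log2 -0.13 ± 0.052, adjusted p = 0.0294, edgeR) also fell short of that fold, and its groups overlapped. Akt1s1 did not pass the test (log2 -0.05 ± 0.048, 95% interval -0.15 to 0.05).

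Of the regulator and effectors, the largest fold change belonged to Eif4ebp1, whose protein holds back cap-dependent translation. Its 266, 266, 320 and 377 CPM with DMSO fell to 117, 125, 132 and 137 CPM with torin1, a 2.41-fold drop (log2 -1.27 ± 0.130, adjusted p = 1.05e-08, edgeR). Its relative Eif4ebp2 had 274, 278, 287 and 292 CPM with DMSO and 168, 171, 184 and 204 CPM with torin1 (1.56-fold lower, log2 -0.64 ± 0.047, adjusted p = 4.15e-11, edgeR). Both repressor genes were lower in every torin1 library than in any vehicle library. Rps6kb1, the S6 kinase, went from 83.5, 84.7, 86.3 and 88.9 CPM to 59.0, 62.1, 64.0 and 64.8 CPM (log2 -0.46 ± 0.056, adjusted p = 1.53e-07, edgeR). Rheb had 94.0, 94.4, 96.1 and 120 CPM with DMSO and 72.0, 73.6, 73.7 and 83.0 CPM with torin1 (log2 -0.42 ± 0.078, adjusted p = 6.22e-05, edgeR). The highest Rheb library of both groups was that of passage 12, and within passages the fall was 0.35 to 0.53 on the log2 scale. When each library was left out in turn, these 7 calls held in all 8 fits.

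In AMPK KO, torin1 raised Rictor and lowered Eif4ebp1, Eif4ebp2, Rheb and Rps6kb1. This made 5 of 10 called, against 43.5% of all genes tested, and a median log2 fold change of -0.20 over the members beside 0.055 over all genes. The summed markers of other cells had 5.71 to 7.26 CPM in this group, against 3.47 to 5.13 CPM with DMSO, and their part was not tested here either. Rictor rose from 60.6, 61.3, 63.4 and 64.2 CPM to 81.2, 81.8, 86.9 and 89.6 CPM (log2 0.44 ± 0.052, adjusted p = 1.07e-07, edgeR). Eif4ebp1 dropped from 275, 281, 283 and 299 CPM to 108, 111, 113 and 119 CPM, 2.52-fold (log2 -1.33 ± 0.130, adjusted p = 6.83e-09, edgeR). In both genes the groups were far apart, as they were in WT. Rheb went from 94.4, 98.6, 103 and 105 CPM to 74.0, 75.3, 76.2 and 78.8 CPM (log2 -0.40 ± 0.078, adjusted p = 0.00012, edgeR). Eif4ebp2 fell from 247.7, 249.6, 251.4 and 251.9 CPM to 198, 201, 202 and 216 CPM, 1.22-fold (log2 -0.29 ± 0.047, adjusted p = 1.06e-05, edgeR). Its call was near the fold threshold, and with scaling by library size alone the log2 change was -0.231 and the gene was not called.

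Rps6kb1 had 66.0, 67.6, 69.8 and 72.7 CPM in AMPK KO given DMSO and 53.2, 54.8, 55.5 and 55.6 CPM under torin1 (log2 -0.33 ± 0.056, adjusted p = 1.89e-05, edgeR). This call depended on how transcript length was treated: per length the means were 40.9 ± 0.895 and 39.6 ± 2.04 TPM, and with an offset for average transcript length the log2 change was -0.150 (adjusted p = 0.0782, edgeR). In WT the same offset gave -0.315 (adjusted p = 0.000495, edgeR). Rptor stood just short of the rule in AMPK KO: 105, 106, 106 and 107 CPM became 85.7, 85.7, 90.0 and 97.1 CPM, a 1.18-fold drop (log2 -0.24 ± 0.045, adjusted p = 6.46e-05, edgeR). It passed the fold when AMPK KO DMSO replicate 3 or 4 was left out (log2 -0.293 and -0.30), or AMPK KO torin1 replicate 2 or 4 (-0.333 and -0.268). Mapkap1 (62.1 to 67.5 CPM with DMSO, 56.3 to 60.2 with torin1) changed by log2 -0.14 ± 0.039 and Mlst8 by -0.15 ± 0.051, both under the 1.2-fold rule with adjusted p of 0.00375 and 0.0136 by edgeR. Mtor (77.9 to 86.9 against 91.0 to 96.9 CPM) changed by 0.19 ± 0.039, much as in WT, and Akt1s1 did not pass the test.

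**Figure D2:**
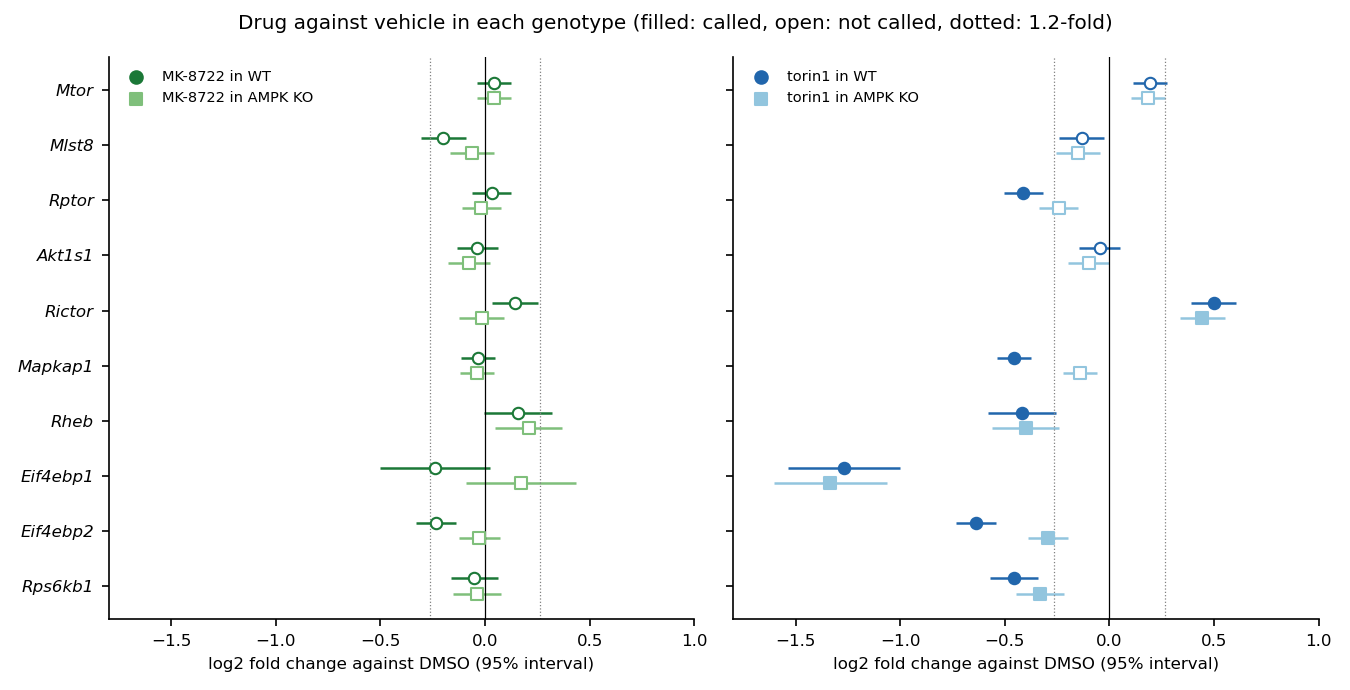
Fold change of each member against DMSO on a log2 axis, MK-8722 at left and torin1 at right (points: edgeR estimates, lines: 95% intervals, circles WT, squares AMPK KO, filled where called). Torin1 placed Rictor at 0.50 and 0.44 and Eif4ebp1 at -1.27 and -1.33 in the respective genotypes, whereas no MK-8722 point was called.

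Whether the response to torin1 differed between genotypes was tested as an interaction, the log2 change in AMPK KO minus that in WT. Mapkap1 and Eif4ebp2 were called, 2 of 10 against 7.07% of all genes tested, and both fell less in AMPK KO. For Mapkap1 the change was -0.46 in WT and -0.14 in AMPK KO, a difference of 0.32 ± 0.056 (adjusted p = 0.000935, edgeR). For Eif4ebp2 it was -0.64 and -0.29, a difference of 0.35 ± 0.066 (adjusted p = 0.00188, edgeR). The remaining members did not pass: for Eif4ebp1 the 95% interval of the difference was -0.44 to 0.31, for Rictor -0.21 to 0.10, for Rheb -0.21 to 0.25 and for Mtor -0.12 to 0.11. Rptor (0.17 ± 0.064, adjusted p = 0.0989, edgeR) and Rps6kb1 (0.12 ± 0.079, adjusted p = 0.362, edgeR) had positive estimates too.

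Both calls were close to the 1.2-fold rule, a log2 of 0.26, and several single libraries carried them across it. Without WT torin1 replicate 1 the differences were 0.237 for Mapkap1 and 0.244 for Eif4ebp2, without WT torin1 replicate 3 they were 0.238 and 0.240, and without AMPK KO torin1 replicate 2 they were 0.254 and 0.246. Mapkap1 alone fell below the rule without AMPK KO DMSO replicate 3 (0.229), AMPK KO DMSO replicate 4 (0.241) or AMPK KO torin1 replicate 4 (0.233). In all 16 such fits the sign held and the adjusted p by edgeR stayed at or below 0.0192 for Mapkap1 and 0.034 for Eif4ebp2. When the earliest passage of each genotype was left out, Mapkap1 gave 0.184 (adjusted p = 0.0628, edgeR) and was no longer past the test, while Eif4ebp2 gave 0.311 (adjusted p = 0.021).

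The next question was whether activating AMPK changed these genes. MK-8722 called none of the 10 in WT, where it called 15.7% of all genes tested, and none in AMPK KO, where it called 1.56%. By adjusted p alone, without the fold rule, edgeR passed 3 members in WT and 0 in AMPK KO, beside 28.1% and 2.67% of all genes tested. The unadjusted p was under 0.05 for 3 and 1 (Rheb), beside 5989 and 2610 of the 15828 genes tested, and DESeq2 called 0 in either genotype. Eif4ebp2 went from 274 to 292 CPM with DMSO to 227, 241, 245 and 249 CPM with MK-8722 in WT, without overlap (1.18-fold lower, log2 -0.24 ± 0.047, adjusted p = 0.00045, edgeR). Mlst8 went from 47.9, 50.3, 51.2 and 52.9 CPM to 42.1, 42.6, 45.0 and 46.6 CPM (log2 -0.20 ± 0.052, adjusted p = 0.00553, edgeR). Rictor went from 46.8 to 53.0 CPM with DMSO to 53.0, 53.2, 55.9 and 61.5 CPM (log2 0.14 ± 0.053, adjusted p = 0.0459, edgeR). All 3 estimates had the sign of those under torin1, and those of Eif4ebp2 and Rictor were smaller. The comparisons share their DMSO libraries. In AMPK KO the estimates were -0.03 ± 0.047 for Eif4ebp2, -0.06 ± 0.051 for Mlst8 and -0.02 ± 0.052 for Rictor. The difference between genotypes passed adjusted p for Eif4ebp2 (0.21 ± 0.066, adjusted p = 0.0315, edgeR) without reaching 1.2-fold, so that 0 of 10 were called by edgeR or DESeq2 against 12.8% of all genes tested. At an unadjusted p under 0.05 there were 3 members, beside 4696 of the 15828 genes. The Eif4ebp2 difference did not hold its adjusted p when 1 of 6 libraries was left out: WT DMSO replicate 1, WT MK-8722 replicate 1, AMPK KO DMSO replicate 2, 3 or 4, or AMPK KO MK-8722 replicate 3. Over all 16 such fits the difference was 0.18 to 0.236 and the adjusted p 0.0237 to 0.0804 by edgeR. Mtor changed by log2 0.04 in either genotype, with 95% intervals of -0.04 to 0.13 for WT and -0.04 to 0.12 for AMPK KO.

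In WT, the level of Eif4ebp1 was highest at passage 12 in all 3 treatments. WT DMSO held 377 CPM of Eif4ebp1 at passage 12, 320 at passage 13, 266 at passage 14 and 266 at passage 15. With MK-8722 the values at the same passages were 372, 248, 201 and 220 CPM. Thus the drug libraries were lower in 4 of 4 passages, by only 0.02 on the log2 scale at passage 12 and by 0.28 to 0.40 at the others. Pooled over passages, the groups overlapped and the change did not pass (log2 -0.24 ± 0.127, adjusted p = 0.173, edgeR). Without WT MK-8722 replicate 2, the library of passage 12, it was -0.464 (adjusted p = 0.000407, edgeR) and called. This unpaired fit kept the DMSO library of passage 12 (377 CPM), and its estimate was larger in size than the difference within any passage. Leaving out the earliest passage of each genotype in all groups gave a smaller estimate, given below. In AMPK KO, Eif4ebp1 was higher with MK-8722 in 4 of 4 passages (275, 281, 283 and 299 CPM with DMSO against 313, 314, 324 and 330 CPM), a log2 change of 0.17 ± 0.127 (adjusted p = 0.553, edgeR). The difference between genotypes was 0.41 ± 0.179 (adjusted p = 0.123, edgeR). Without WT MK-8722 replicate 2, and again with the DMSO library of passage 12 kept, the difference was 0.633 (adjusted p = 0.000736, edgeR). With passage as a block it was 0.431 (adjusted p = 0.00228, edgeR) and called. Passage 12 was also the earliest of the series, and nothing else that sets its libraries apart was tested.

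Rheb was higher with MK-8722 at every passage in both genotypes: within passages the log2 differences were 0.08 to 0.23 for WT and 0.10 to 0.34 for AMPK KO. In WT its levels were 127 against 120 CPM at passage 12, 111 against 94.4 at passage 13, 107 against 94.0 at passage 14 and 106 against 96.1 at passage 15. In AMPK KO they were 131 against 103 CPM at passage 16, 101 against 94.4 at passage 17, 121 against 105 at passage 18 and 111 against 98.6 at passage 19. The pooled estimates of 0.16 ± 0.078 and 0.21 ± 0.077 did not pass (adjusted p = 0.142 and 0.158, edgeR). With passage as a block they were 0.161 (adjusted p = 0.00573, edgeR) and 0.205 (adjusted p = 0.00336, edgeR), past the test but below 1.2-fold. The difference between genotypes was 0.05, with a 95% interval of -0.18 to 0.28.

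**Figure D3:**
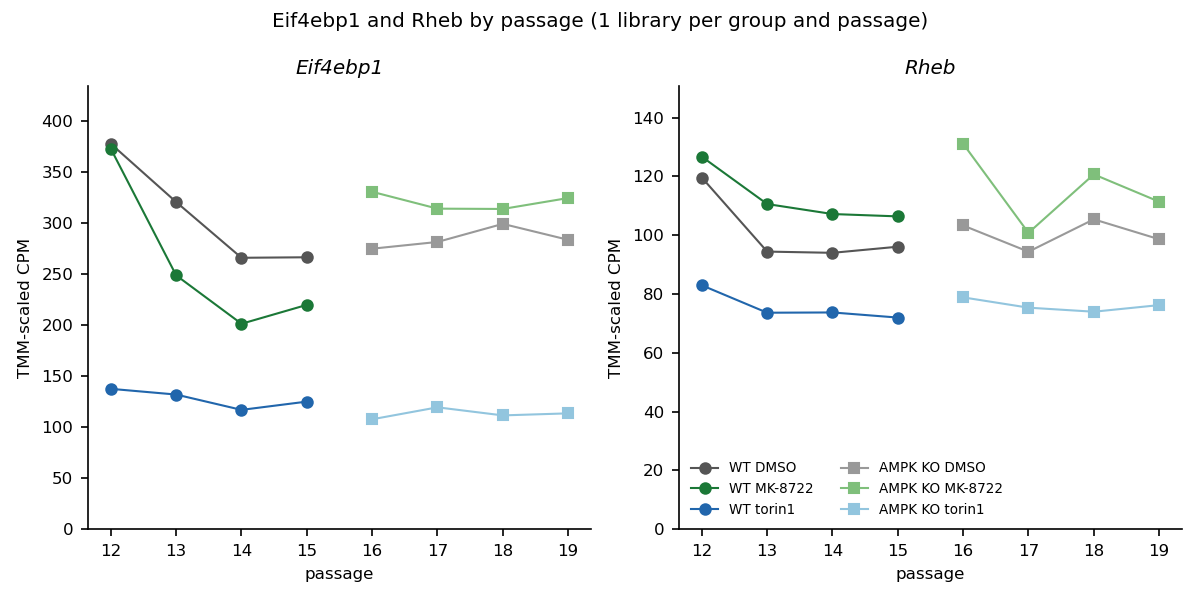
Level of Eif4ebp1 and Rheb against passage, with 1 library per group and passage, as TMM-scaled CPM on an axis that starts at 0. In WT given DMSO, Eif4ebp1 ran from 377 CPM at passage 12 to 266 at passage 15, and the torin1 libraries lay below both other groups at every passage.

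Between the vehicle groups, AMPK KO had more Rictor and less Rps6kb1 than WT. These were 2 of 10 called, well under the 56.9% of all genes tested that were called in this comparison. Rictor had 46.8 to 53.0 CPM in WT libraries and 60.6 to 64.2 CPM in those of AMPK KO, without overlap (log2 0.30 ± 0.052, adjusted p = 1.87e-05, edgeR), and without WT DMSO replicate 1 or 3 the log2 difference was 0.256 or 0.223 and below 1.2-fold. Rps6kb1 had 83.5 to 88.9 CPM in WT libraries against 66.0 to 72.7 CPM in AMPK KO (1.24-fold lower, log2 -0.32 ± 0.055, adjusted p = 2.08e-05, edgeR). Rptor (0.21 ± 0.045), Mlst8 (0.17 ± 0.051), Eif4ebp2 (-0.18 ± 0.047) and Mapkap1 (-0.10 ± 0.039) differed by adjusted p alone, from 0.000183 to 0.0271 by edgeR. Mtor, Akt1s1, Rheb and Eif4ebp1 did not pass, with 95% intervals of -0.10 to 0.07, -0.13 to 0.06, -0.17 to 0.15 and -0.37 to 0.15. The genotypes also differed in passage in the summed fibroblast markers given above and in the summed markers of other cells (1.153 to 2.121 CPM in WT DMSO, 3.47 to 5.13 CPM in AMPK KO DMSO), and the part of these in the result was not tested. Scaling by library size alone put the median of all genes at a log2 of 0.155, against 0.015, and then Rptor (0.353) and Mlst8 (0.313) were called while Rps6kb1 (-0.176) was not. The direction of all 3 was the same under either scaling.

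Set directly against MK-8722 in WT, torin1 libraries again had more Rictor and less Rptor, Mapkap1, Rheb, Eif4ebp1, Eif4ebp2 and Rps6kb1, 7 of 10 against 45.7% of all genes tested. Eif4ebp1 had 117 to 137 CPM with torin1 and 201 to 372 CPM with MK-8722, a 2.04-fold difference (log2 -1.03 ± 0.129, adjusted p = 3.1e-07, edgeR). Rheb differed by 1.49-fold (72.0 to 83.0 against 106 to 127 CPM, log2 -0.58 ± 0.078, adjusted p = 9.85e-07, edgeR), and within passages by 0.54 to 0.61 on the log2 scale. Rptor (-0.44 ± 0.046), Mapkap1 (-0.42 ± 0.040), Eif4ebp2 (-0.40 ± 0.047) and Rps6kb1 (-0.41 ± 0.056) were lower by like amounts, and Rictor was higher by 0.36 ± 0.052. With the offset for transcript length the Rps6kb1 difference was -0.173 (adjusted p = 0.0409, edgeR) and not called. Mlst8 and Akt1s1 did not pass, with 95% intervals of -0.04 to 0.17 and -0.11 to 0.09.

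A ratio within a library does not depend on scaling between libraries. There was more Rptor than Rictor RNA per length in every library, 3.10-fold in WT given DMSO (log2 ratio 1.63 ± 0.181, SD, n = 4) and 2.78-fold in AMPK KO given DMSO (1.48 ± 0.049). Under torin1 the ratio was 1.55-fold in WT (0.63 ± 0.200) and 1.74-fold in AMPK KO (0.80 ± 0.105), and its highest torin1 library, at 0.776 in WT and 0.887 in AMPK KO, lay below the lowest vehicle library, at 1.386 and 1.434. With MK-8722 the log2 ratio was 1.41 ± 0.142 in WT and 1.54 ± 0.083 in AMPK KO, both overlapping vehicle. The ratio of Eif4ebp1 to Eif4ebp2 was 4.01-fold in WT given DMSO (2.00 ± 0.289) and 2.58-fold under torin1 (1.37 ± 0.109). In AMPK KO it was 4.23-fold (2.08 ± 0.046) and 2.17-fold (1.11 ± 0.025). The WT vehicle ratio spread from 1.71 to 2.36, with its highest value at passage 12. Gene TPM sums coding and non-coding transcripts. For the main coding transcripts under torin1, Rptor-201 had 11.1 ± 1.13 TPM and Rictor-201 12.0 ± 0.855 TPM in WT. In AMPK KO they had 14.4 ± 0.706 and 15.4 ± 1.04 TPM. With DMSO, Rptor-201 was above Rictor-201, at 12.65 ± 0.595 against 7.90 ± 0.480 TPM in WT. In AMPK KO given DMSO they had 16.1 ± 0.674 and 10.4 ± 0.450 TPM. The ratios and these levels are descriptions and were not tested.

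**Figure D4:**
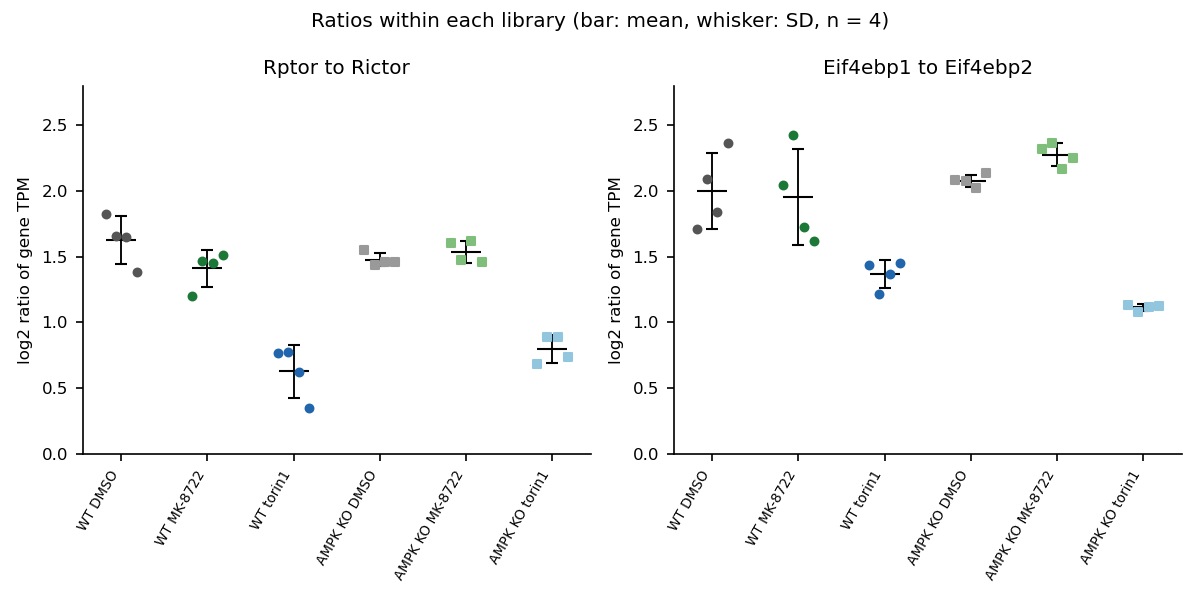
Log2 ratio of gene TPM within each library for Rptor to Rictor (left) and Eif4ebp1 to Eif4ebp2 (right); points are libraries, bar and whisker the mean and SD (n = 4). Mean Rptor to Rictor ratios were 0.63 and 0.80 under torin1 and between 1.41 and 1.63 in the other groups.

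Transcript estimates, which the choice of genes did not use, showed how each gene's RNA was made up. A single coding transcript carried most of the TPM of Rictor (Rictor-201, 92.4% over all libraries), Rheb (Rheb-201, 90.4%), Mtor (Mtor-202, 73.3%) and Eif4ebp2 (Eif4ebp2-201, 69.9%). Mlst8 and Mapkap1 were spread over many transcripts, with leading shares of 34.8% and 20.9%. For Eif4ebp1 the short non-coding transcript Eif4ebp1-202 (798 bases) took 57.6% of TPM and the coding Eif4ebp1-201 (1997 bases) the rest. The torin1 drop ran through both: Eif4ebp1-201 went from 163 ± 26.3 to 73.9 ± 4.63 TPM and Eif4ebp1-202 from 228 ± 46.6 to 99.0 ± 8.08 TPM in WT (SD, n = 4), so the coding share was 41.9% ± 1.13 before and 42.8% ± 1.30 after. Rictor-201 kept a share of 92.9% ± 2.81 with DMSO and 92.9% ± 2.50 with torin1 in WT while its level went from 7.90 ± 0.480 to 12.0 ± 0.855 TPM. Rptor was carried by Rptor-201 (48.1% ± 3.46 with DMSO, 55.7% ± 8.16 with torin1 in WT) and by Rptor-211, annotated as a target of nonsense-mediated decay (25.4% ± 1.55 and 23.8% ± 2.88). In Mlst8 the leading transcript Mlst8-201 went from 30.3% ± 1.94 to 24.1% ± 3.84 with torin1 in WT, without overlap, and from 40.1% ± 3.99 to 46.9% ± 3.79 in AMPK KO, where the groups just touched. The share of Eif4ebp2-201 was 69.2% ± 2.62 with DMSO and 68.5% ± 1.198 with torin1 in WT, and went from 70.1% ± 1.41 to 74.1% ± 1.82 in AMPK KO without overlap. In Rps6kb1, the short coding transcript Rps6kb1-204 (555 bases) went from 23.6% ± 3.91 to 31.4% ± 2.14 of TPM in WT and from 27.4% ± 3.73 to 33.8% ± 4.77 in AMPK KO, while the retained-intron transcript Rps6kb1-201 (2771 bases) went from 33.9% ± 3.71 to 27.8% ± 1.34 and from 31.5% ± 1.26 to 26.6% ± 1.38. Salmon's uncertainty in splitting reads between transcripts was not available, so these shares carry no test.

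Exons of 4 members overlap those of another gene in GENCODE M21: Mlst8 (chr17:24473551-24479078, minus strand) shares 997 exonic bases with Bricd5 on the other strand, Akt1s1 162 with Mir707 and Tbc1d17, Rps6kb1 155 with Rnft1 and Rptor 84 with Rptoros. The strand setting of the counting is not given in the sources used here, so reads from these stretches cannot be assigned with certainty. Rictor (chr15:6708379-6800401), Mapkap1 (chr2:34406771-34624950), Eif4ebp1 (chr8:27260329-27276674), Eif4ebp2 (chr10:61428491-61452661), Rheb (chr5:24802823-24842624) and Mtor (chr4:148448611-148557683) overlap no other exon.

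Across the 24 libraries, after each gene's log2 CPM was centred on its genotype mean, the members other than Akt1s1 and Mlst8 fell into a falling and a rising set. These correlations mostly restate the torin1 groups that the libraries share, and are given as a description. Rictor ran against Eif4ebp1 (Pearson r = -0.91), Eif4ebp2 (-0.88), Rptor (-0.87) and Rps6kb1 (-0.86), and with Mtor (0.86). Eif4ebp2 ran with Rptor (0.91) and with Mapkap1 (0.87), and Eif4ebp1 with Rheb (0.90). Akt1s1, which no comparison called, had coefficients between -0.29 and 0.47 with all other members, and Mlst8 between -0.5 and 0.47. Of 10551 genes with a mean of at least 5 CPM, those most like Eif4ebp1 were Slc7a5, a carrier of large neutral amino acids (0.994), Shmt2, a mitochondrial serine enzyme (0.993), and Aldh18a1, an enzyme of proline synthesis (0.992). For Mtor they were Vps13d (0.926), Ccdc28a (0.922) and Kntc1 (0.922).

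Around the members, 48 further genes of the pathway were counted by role, all of which passed the filter. Torin1 raised 14 and lowered 17 of them in WT and raised 18 and lowered 12 in AMPK KO, while MK-8722 raised 13 and lowered 0 in WT and raised 1 and lowered 3 in AMPK KO. Over all genes tested, torin1 raised 26.6% and lowered 21.1% in WT and raised 25.9% and lowered 17.6% in AMPK KO. The shares for MK-8722 were 10% and 5.66% in WT, then 0.866% and 0.695% in AMPK KO. The median log2 change of the 48 genes was 0.05 for MK-8722 and for torin1 in WT. Of the paralogues of the members, Rhebl1 rose under torin1 (log2 1.09 ± 0.102 in WT, 1.11 ± 0.098 in AMPK KO) where Rheb fell. Eif4ebp3 rose as well (1.21 ± 0.232 and 1.47 ± 0.248) where Eif4ebp1 and Eif4ebp2 fell, though its reads are uncertain because another annotated gene on the same strand shares 2 of its 3 exons. Its level was low, with means of 0.91 CPM with DMSO and 2.14 CPM with torin1 in WT. In AMPK KO these means were 0.556 and 1.54 CPM. Rps6kb2 fell in WT (-0.28 ± 0.083) and stayed below the fold rule in AMPK KO (-0.24 ± 0.080).

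Upstream of MTORC1, 3 of the Rag GTPases, which bring the complex to the lysosome, rose under both drugs in WT: Rragc by 0.95 ± 0.064 with MK-8722 and 0.41 ± 0.064 with torin1, Rragb by 0.81 ± 0.108 and 0.79 ± 0.107, and Rragd, at 0.371 ± 0.0878 CPM (SD, n = 4) with DMSO, by 1.96 ± 0.27 and 1.62 ± 0.28. With MK-8722 in AMPK KO the same 3 genes gave -0.05, 0.10 and -0.16 and were not called. Rragd already had a mean of 5.463 CPM in AMPK KO DMSO, above its WT means under MK-8722 (1.465) and torin1 (1.143). The log2 difference of AMPK KO from WT in DMSO was 3.86 ± 0.24 for Rragd (adjusted p = 7.36e-13, edgeR). For Rragc and Rragb it was -0.49 and -0.46. Torin1 raised Rragd by 0.49 in AMPK KO, a difference from WT of -1.13 ± 0.329 (adjusted p = 0.0311, edgeR). The part of the DMSO level of Rragd in its drug responses was not tested. The fourth of these GTPases, Rraga, fell under torin1 in WT (-0.46 ± 0.042) and in AMPK KO (-0.41 ± 0.042), as did Lamtor4 (-0.29 ± 0.057 and -0.32 ± 0.056) of the Ragulator, the scaffold that holds the Rags. Lamtor3 (-0.50 ± 0.045) and Lamtor5 (-0.27 ± 0.054) fell in WT and gave -0.16 and -0.13 in AMPK KO, below the fold rule. Of the 9 genes of this role, torin1 thus raised 3 and lowered 4 in WT and raised 3 and lowered 2 in AMPK KO, and MK-8722 raised 5 in WT. Rraga, Lamtor3, Lamtor4 and Lamtor5 were added after their values were seen. Tsc1, a subunit of the complex that switches RHEB off, rose by 0.64 ± 0.060 with MK-8722 and 0.67 ± 0.059 with torin1 in WT and by 0.48 ± 0.059 with torin1 in AMPK KO. In the GATOR complexes, which pass the amino acid signal on to the Rag GTPases, torin1 in WT raised Wdr59 (0.62 ± 0.040) and lowered Sec13 (-0.93 ± 0.048) and Seh1l (-0.47 ± 0.046). In AMPK KO these genes gave 0.57, -0.69 and -0.25, the last below the fold rule. Of the 8 GATOR genes, torin1 raised 2 and lowered 2 in WT and raised 2 and lowered 1 in AMPK KO. SEC13 and SEH1L also serve in the nuclear pore. Of the complex partners, Prr5, a binding partner of RICTOR, fell under torin1 by 0.29 on the log2 scale in WT and 0.31 in AMPK KO. The assembly factor gene Tti2 fell by 0.26 in WT and gave -0.09 in AMPK KO, not called. Of the 6 genes of this role, torin1 raised 0 and lowered 2 in WT and raised 2 and lowered 1 in AMPK KO.

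Downstream, torin1 lowered Akt1, the kinase phosphorylated by MTORC2, in WT (-0.87 ± 0.060) and in AMPK KO (-0.70 ± 0.060), and Prkca by 0.32 and 0.31 on the log2 scale. Sgk1, another such kinase, rose (0.92 ± 0.099 and 0.58 ± 0.104). Of the effectors of MTORC1 signalling, Pdcd4, an inhibitor of the helicase EIF4A, rose by 0.85 ± 0.096 in WT and 1.35 ± 0.094 in AMPK KO, and Eef2k, the kinase that slows elongation, by 0.68 ± 0.096 and 0.49 ± 0.104. Grb10, an adaptor that MTORC1 stabilises, fell (-0.52 ± 0.093 and -1.02 ± 0.096). The response of Pdcd4 and that of Grb10 differed between genotypes (0.50 ± 0.133 and -0.50 ± 0.133, adjusted p = 0.0191 for each, edgeR).

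**Figure D5:**
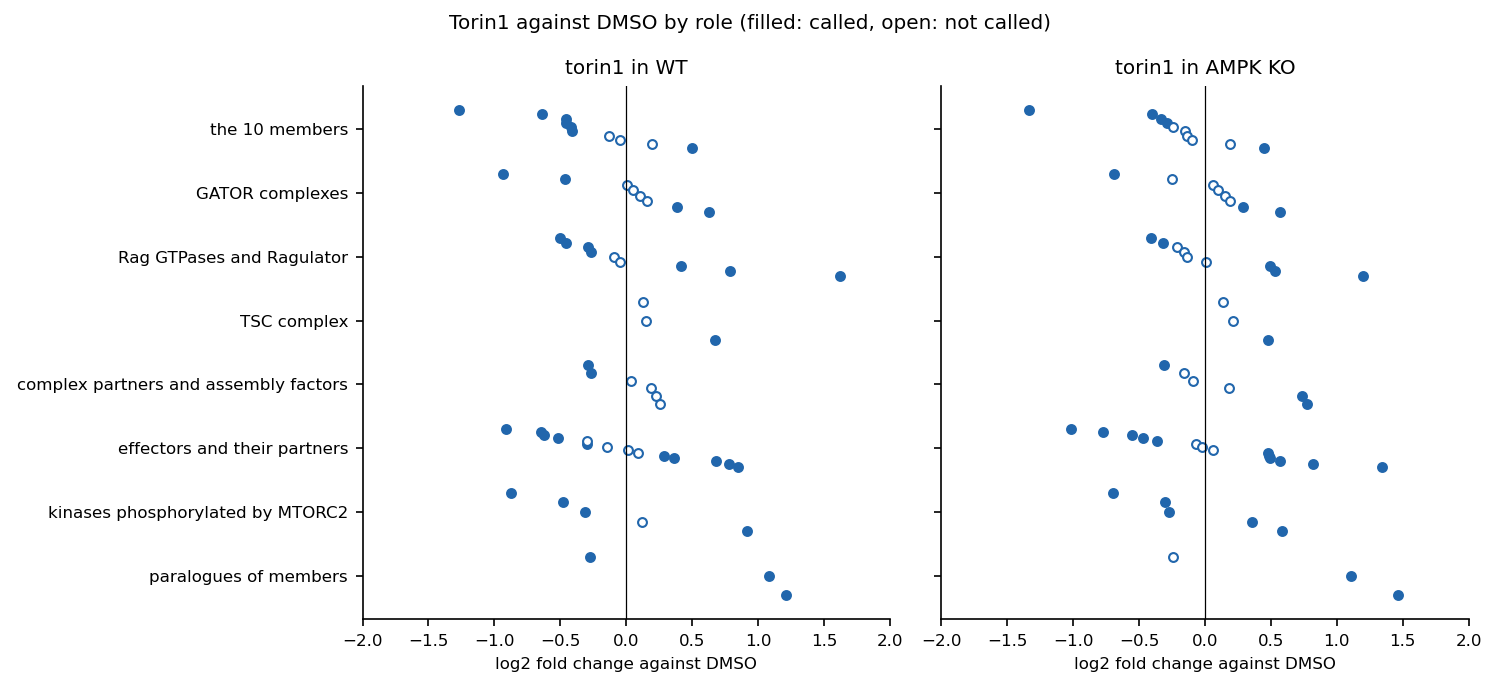
Log2 fold change of torin1 against DMSO in WT (left) and AMPK KO (right) for the 10 members and the 48 further genes grouped by role, 1 point per gene (filled: called). Members lay mostly below 0, with a median of -0.42 in WT and -0.20 in AMPK KO, while the further genes lay on both sides, with medians of 0.05 and 0.08.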

How the data were processed

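RNA from 24 libraries was sequenced. Per the study's methods the authors ran nf-core/rnaseq v3.11.2 (Nextflow v23.04.1) with STAR and Salmon on GRCm38 and Ensembl release 102, and deposited estimated counts per gene, and estimated counts and TPM per transcript in each library. Gene TPM here is the sum over transcripts. A Salmon estimate spreads ambiguous reads over paralogues and transcripts, so its error exceeds counting error. Groups came from the sample labels, in which the batch is the same throughout.

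Estimated counts were rounded, filtered (filterByExpr), scaled by TMM and fitted with 6 group means in edgeR 4.0.16 (R 4.3.3), for 8 comparisons. P-values were adjusted by Benjamini-Hochberg over 15828 genes, and genes at adjusted p under 0.05 and at least 1.2-fold were called, as in the study. The steps were tested on simulated data. Alternatives were DESeq2 1.42.0 and its size factors, library size alone, no filter, a transcript-length offset, replicate and passage blocks, fewer libraries and other thresholds. The members and gene lists were chosen with earlier results of these data known. The 10 members are all named. Of the 48 pathway genes, up to 3 per role were named that torin1 called in WT, ranked by the number of comparisons in which they were called and then by fold. Likeness was ranked by Pearson r, and gene models and pseudogenes were passed over. Sequences are from RefSeq, and protein sequences were not analysed here. Library totals of 26900240 to 34192685 estimated counts gave every member at least 1093 per library.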

Additional observations from a re-analysis of the deposited data

Results flagged for a closer look

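In 3 of the 60 sets of 4 libraries examined (each member in each group), 1 library stood apart from the others, and chance alone gives about 1 in 20 such sets. All 3 were libraries of passage 12. Akt1s1 had 120 CPM in WT MK-8722 replicate 2 and 102.1 to 104.4 CPM in the other libraries of that group. Rheb had 119.6 CPM (about 120) in WT DMSO replicate 4 against 94.0 to 96.1 CPM in the others, and 83.0 CPM in WT torin1 replicate 4 against 72.0 to 73.7 CPM. Without the earliest passage of each genotype the call of Rheb under torin1 in WT was kept.

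The response to a drug differed between genotypes by the interaction test in 3 cases. For torin1 these were Mapkap1 (log2 0.32, AMPK KO minus WT) and Eif4ebp2 (0.35), and for MK-8722 it was Eif4ebp2 (0.21), which passed the adjusted p of edgeR but not the 1.2-fold rule. With 1 library left out, its adjusted p ran from 0.0237 to 0.0804. The Eif4ebp2 estimates for MK-8722 and torin1 were -0.24 and -0.64 for WT, against -0.03 and -0.29 for AMPK KO. What sets these responses apart was not tested.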

How the results depend on the processing

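Of 710 values for the members under other scalings, filters, blocks, tools and selections of libraries, 692 stayed on the same side of the rule, 7 lost the call and 11 gained it. No called value changed sign, there or in the 800 values with 1 library left out. The number of members called then ran from 7 to 7 for torin1 in WT and against MK-8722, from 5 to 6 for AMPK KO given torin1, 0 to 1 for MK-8722 in WT, 0 to 0 for MK-8722 in AMPK KO, 1 to 2 between genotypes, 0 to 1 for the MK-8722 interaction and 0 to 2 for the torin1 interaction.

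By adjusted p alone, 3 members passed for MK-8722 in WT, 9 for torin1 in AMPK KO, 6 between genotypes and 1 (Eif4ebp2) in the MK-8722 interaction. Of all genes tested, 28.1%, 57.2%, 69.5% and 16.7% passed in these comparisons. At 1.5-fold, 2 remained for WT given torin1, 1 for AMPK KO given torin1 (Eif4ebp1), 1 for torin1 against MK-8722, 0 between genotypes and 0 in the torin1 interaction. The shares of all genes tested at that fold were 24.4%, 19.9%, 22.4%, 35% and 1.93%. With no filter, 1 remained between genotypes (Rictor lost at log2 0.253), beside 31.5% of all genes then tested. With the compared libraries alone, 1 remained in the torin1 interaction (Mapkap1 lost at 0.243), beside 7.3%. Without the earliest passages, 1 was called for MK-8722 in WT (Eif4ebp1, -0.345), 1 in its interaction (Eif4ebp1, 0.479) and 1 in the torin1 interaction (Eif4ebp2). The shares of all genes called in that setting were 17.1%, 14.1% and 8.44%. The cause was not tested, except that stricter or looser thresholds act by construction.

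Replicate numbers did not pair the libraries (correlations of -0.196 to 0.25 between same-numbered libraries, 8 of 20 best with their own number), and the replicate block changed no call of a member (7 for torin1 in WT, 5 in AMPK KO). Libraries of a passage correlated at -0.011 to 0.367 (11 of 16 best with their own), and the passage block called 1 member in the MK-8722 interaction (Eif4ebp1, 0.431, adjusted p = 0.00228, edgeR). With that block, 17.6% of all genes tested were called in this interaction. The passage block could not be run between genotypes, which share no passage. Library size alone put the median of all genes at 0.136 for torin1 in WT, where Mtor was then called (0.294), and at 0.117 in AMPK KO. The share of the leading transcript differed between TPM and estimated counts, such as 57.6% against 32.3% for Eif4ebp1. The gene-level values of the 10 members rested on 1093 or more estimated counts per library. Precision was set by the 4 libraries per group, and genotype, line and passage cannot be told apart.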
